A study of Gallus gallus with 4 samples.

Results

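The genes described here encode the motors, tracks and trains of microtubule transport. They are the annotated genes whose symbols begin with KIF, DYNC, DYNL, TUBA, TUBB, TUBG, IFT or BBS, without KIF11, KIF20A and KIF23. The rule reads symbols and not values, but members, lists and roles were set with earlier results of these data known. The rule gave 83 of the 13051 genes measured, through 191 probe sets. Each gene's level was the median of its probe sets that were annotated to 1 symbol only. For a pair of probe sets this is their midpoint, which can lie between a bright and a faint one. By role, 18 members serve transport along axons, 31 serve the cilium, and 34 belong to neither list. The axonal list holds kinesin-1, kinesin-3 and related motors, and cytoplasmic dynein 1 with its light chains other than DYNLRB2. The members of neither list are tubulins, mitotic kinesins, DYNLRB2 and others.

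The arrays came from a study of form-deprivation (FD) myopia in the chick, in which a translucent occluder over an eye blurs the image and the eye grows too long. Male Leghorn/New Hampshire chicks wore the occluder on the right eye from post-hatch day 2 under a 12 hr day and night cycle, for 10 days by the protocol and for 7 days by the time point recorded with the samples. Combined retina, retinal pigment epithelium (RPE) and choroid was taken with the occluder just removed (FD 0 hr, age day 11), after 6 hr of unobstructed vision (FD 6 hr, day 11), after 24 hr (FD 24 hr, day 12), and from other chicks that never wore it (control, day 11). RNA of 5 chicks was pooled for each condition and measured on 1 array, so no difference below has a replicate error or a test. The FD 24 hr chicks were 1 day older than the rest.

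Kinesins walk mainly towards the plus end of a microtubule and cytoplasmic dynein towards its minus end, and together they carry vesicles, mitochondria and signalling endosomes along the axon. In the cilium, kinesin-2 moves trains of intraflagellar transport (IFT) complexes outwards, with IFT-B as their core, and dynein 2 moves them back with the help of IFT-A. The BBSome, a coat complex, rides on these trains and carries membrane proteins. The outer segment of a photoreceptor is a modified cilium whose opsin passes through a narrow connecting cilium, and loss of IFT or BBSome subunits leads to photoreceptor degeneration in mouse and human.

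All values are log2 signals, on which a difference of 1 is a 2-fold difference, and a gene is called dim where its 4-array mean does not exceed 6.28 (the 60th percentile of probe set means). Of the 83 members, 38 lay above this limit and 45 were dim, although 21 of the dim members had a probe set above it. The retina and RPE of the tissue labels were borne out by their markers, beside 6101 of all 13051 genes above the limit. All 11 measured genes of the pigment epithelium and melanocytes and all 8 of cones lay above it. So did all 6 of Müller glia and 10 of 13 of amacrine and horizontal cells. Of choroidal vessels and stroma 7 of 15 did, close to the share of all genes, so this count does not bear out the choroid label. Features of single arrays bear on what follows. HINTW, a gene of the female W chromosome, read 9.36 on the control array and 5.34 to 5.52 on the FD arrays, against the label that all chicks were male. The part of a sex difference between the pools was not tested, and in every comparison with control it cannot be told apart from occlusion. The gap between the 3′ and 5′ β-actin probe sets, which widens as RNA is fragmented, was 3.72 on the FD 0 hr array against 2.39 to 2.85 on the others. That of the control gene EF1α was also widest there, at 1.41 against 1.12 to 1.30, whereas that of GAPDH was 0.16 to 0.21 on all 4. The hybridisation control bioB, a bacterial transcript added in equal amount, read 8.33 on the control array and 8.05 on FD 0 hr against 6.44 and 6.53 on the later arrays, and whether this marks separate runs was not tested. Between probe sets of the same gene, the FD 0 hr minus control difference had an SD of 0.44 over 2572 genes, and that of FD 24 hr minus FD 6 hr an SD of 0.27.

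At the end of occlusion, members lay apart from control in both directions. Among the 38 members above the limit, 5 were higher at FD 0 hr than in control by at least 1 (13.2%, against 4.57% of all 6101 genes above the limit) and 3 were lower (7.89%, against 4.57%). The higher genes were IFT20, IFT74, DYNLRB2, DYNLT3 and IFT57. The lower genes were TUBB3, BBS2 and KIFAP3. With a difference of at least 0.5, 9 members were higher (23.7%, against 15.9%) and 6 lower (15.8%, against 17.8%). The median over all 83 members was -0.01, beside 0.00 over all genes. In this bulk tissue, fewer cells of a type and less RNA per cell cannot be told apart.

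**Figure D1:**
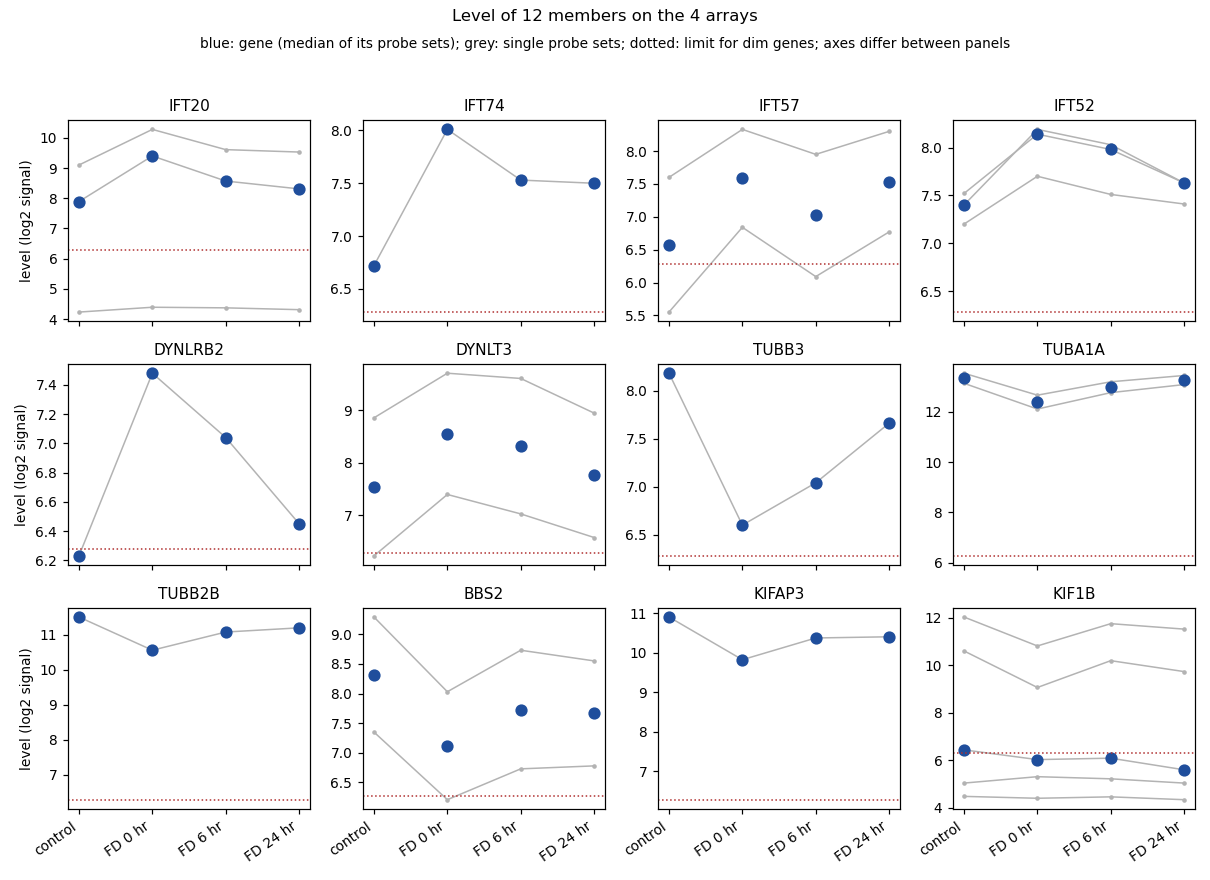
Level (log2 signal, vertical axis) of 12 members on the 4 arrays (horizontal axis), with the gene as blue points, its probe sets in grey and the limit for dim genes (6.28) as a dotted line; each condition is 1 array. IFT20, IFT74, IFT57, IFT52, DYNLRB2 and DYNLT3 were highest at FD 0 hr, TUBB3, TUBA1A, TUBB2B, BBS2 and KIFAP3 were lowest there, and so were the brightest 2 of the 5 probe sets of KIF1B.

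Most IFT-B subunits named by the rule were higher at the end of occlusion. Of 11 measured, 9 were higher at FD 0 hr than in control and 2 lower, where 49.4% of all genes were higher and 49.5% lower. Their median difference was 0.62. Of the 7 above the limit, 6 were higher (45.3% of all genes above it were higher and 54.0% lower), 3 of them by at least 1. Taken probe set by probe set, 12 of the 14 IFT-B probe sets above the limit were higher, with a median of 0.69, where 46.9% of all probe sets above it were higher. IFT-B subunits with other symbols were split: CLUAP1 (0.39) and TRAF3IP1 (0.20), both dim, were higher, TTC26 (dim) did not differ, and HSPB11 (-0.56) and TTC30B (-0.74), the ones above the limit, were lower. Over all 16 IFT-B subunits 11 were higher and 4 lower with a median of 0.34, sorted by complex after the values were seen.

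IFT20, which also sits on the Golgi and sorts membrane proteins for the cilium in mammals, read 7.89 in control and 9.40, 8.57 and 8.31 at FD 0, 6 and 24 hr. It lay 1.51 above control at FD 0 hr, the largest positive difference of any member, and both of its probe sets above the limit were higher there (1.51 and 1.18) while its dim probe set differed by 0.16. IFT74 forms the tubulin-binding module of the train together with IFT81, and read 6.72, 8.01, 7.53 and 7.50 in the same order of arrays. IFT74 lies on chromosome Z of the GRCg7b assembly, where 74.5% of 607 genes were higher at FD 0 hr than in control, with a median of 0.19, and the part of this in its difference of 1.29 was not tested. IFT57, a peripheral subunit that links the train to its kinesin, read 6.58, 7.59, 7.02 and 7.54, so that it was high at FD 0 hr and again at FD 24 hr. At FD 0 hr its brighter probe set lay 0.73 above control and the other, barely above the limit for dim genes (mean 6.31), 1.29. From FD 6 hr to FD 24 hr these probe sets differed by 0.35 and 0.68.

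IFT52, a scaffold of the IFT-B core, read 7.40 in control and 8.14, 7.98 and 7.63 at FD 0, 6 and 24 hr, and its 3 probe sets were higher at FD 0 hr by 0.50 to 0.79. IFT22, a small GTPase-like subunit bound to IFT74 and IFT81, read 8.03, 8.65, 8.41 and 8.30. In these as in IFT20 and IFT74, FD 0 hr was the highest of the 4 arrays and control the lowest. IFT46, which binds IFT52 in the core, went the other way with 9.37, 8.97, 9.07 and 8.71, and control was its highest array. IFT80 read 6.77, 7.08, 7.26 and 6.96, midpoints of a bright probe set (0.56 above control at FD 0 hr) and a dim one (0.05). The remaining IFT-B members (IFT27, IFT81, IFT88 and IFT172) were dim as genes, with differences of 0.69, 0.38, 0.05 and -0.17. Their brightest probe sets differed by 0.92 for IFT27 (still dim), 0.90 for IFT81, 0.65 for IFT88, whose loss stops outer segment formation in mouse, and -0.29 for IFT172.

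The subunits of IFT-A and the BBSome named by the rule were split by gene, while most of their brighter probe sets lay below control. Of the 8 measured subunits, 3 were higher and 5 lower at FD 0 hr, with a median of -0.13, where 49.5% of all genes were lower. Their 12 probe sets above the limit came from only 7 genes. Of these probe sets 10 were lower, with a median of -0.32, where 52.2% of all probe sets above the limit were lower. IFT-A subunits with other symbols went mainly the other way, with 0.50 for TTC21B and, both dim, 0.33 for WDR35 and -0.07 for WDR19, so that 3 of all 6 IFT-A subunits were higher and 3 lower (median -0.03). BBS2, a subunit of the BBSome core, read 8.32 in control and 7.12, 7.73 and 7.67 at FD 0, 6 and 24 hr. Its difference of -1.20 was shared by both of its probe sets (-1.26 and -1.14), each of a kind that can match more than 1 transcript. BBS4, which joins the BBSome to dynein-driven transport, read 8.03, 7.70, 8.23 and 7.80, and its brightest probe set lay 0.80 lower at FD 0 hr. BBS7 went from 7.39 in control to 7.52, 7.05 and 7.29. BBS5 was dim as a gene, with a difference of -0.10, although its brightest probe set read 8.39, 7.76, 8.55 and 8.85.

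Within IFT-A, IFT122, a core subunit, read 6.68 in control and 6.52, 6.95 and 6.87 at FD 0, 6 and 24 hr. IFT43, a small peripheral subunit, read 8.59, 8.34, 8.82 and 8.50, and IFT140 was dim with a difference of 0.02. Both IFT122 and IFT43 were lowest at FD 0 hr, by small differences of -0.16 and -0.25 from control. BBS9 (0.21) of the BBSome was dim, as were BBS10 (-0.14) and BBS12 (0.10), which belong to the chaperonin that assembles it.

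Among the ciliary motors, KIFAP3, the subunit of kinesin-2 that holds the KIF3A and KIF3B motors and binds cargo, stood apart. It read 10.90 in control and 9.82, 10.37 and 10.40 at FD 0, 6 and 24 hr, a difference of -1.08 at FD 0 hr on its 1 probe set, and all 3 FD arrays lay below control. The motor subunits themselves were dim, with differences of -0.27 for KIF3A and -0.26 for KIF3B, and the only KIF3A probe set above the limit differed by -0.46. Of the kinesins that act at the centriole or ciliary tip, KIF24, which trims centriolar microtubules in human cells, read 6.47, 6.59, 6.36 and 6.29, and KIF7, a regulator of Hedgehog signalling, was dim with a difference of -0.27. The KIF24 levels are midpoints of a bright probe set (0.28 at FD 0 hr minus control) and a dim one (-0.04). KIF27 was dim with 0.56 and lies on chromosome Z, as does KIF24. The dynein 2 subunits DYNC2H1 and DYNC2LI1 were dim, with -0.07 and 0.07.

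**Figure D2:**
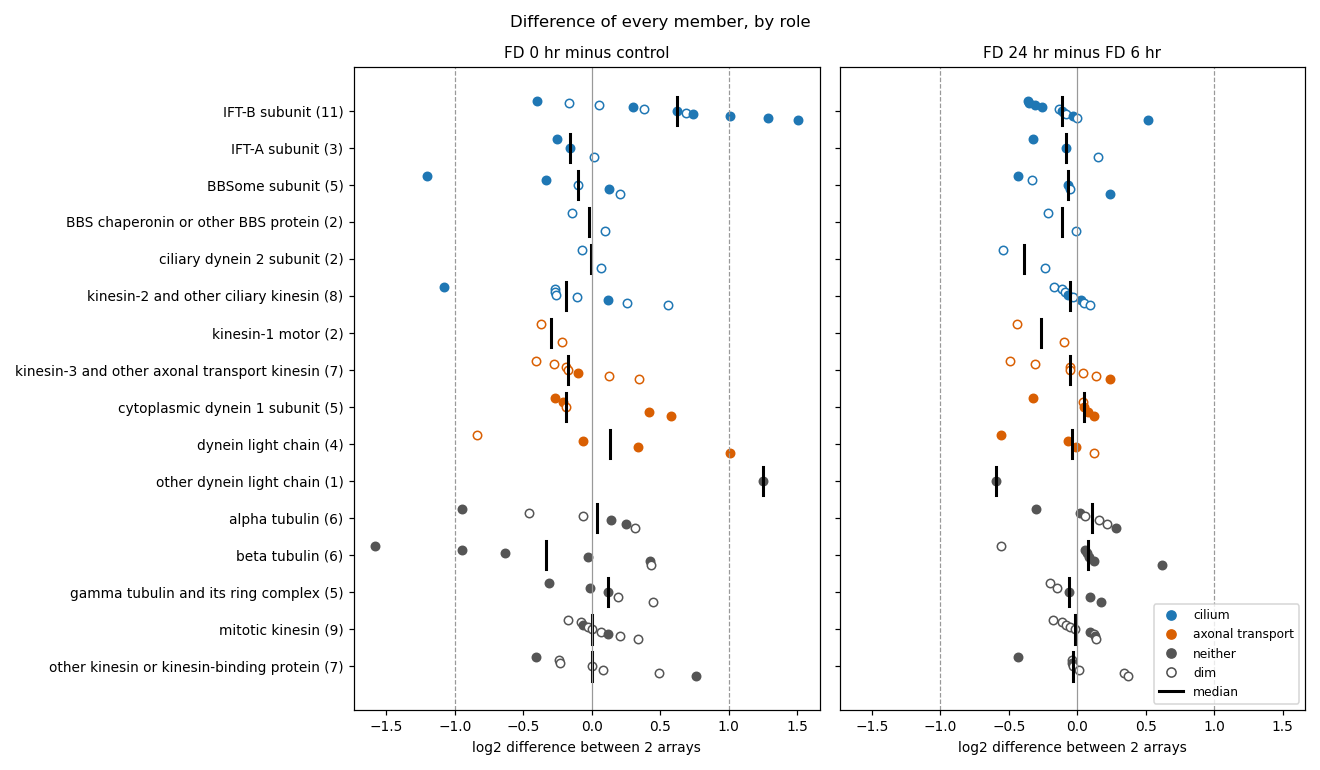
Log2 difference between 2 arrays (horizontal axis) for each of the 83 members, in rows by role with the number of members in brackets; filled points lie above the limit for dim genes, open points are dim, black bars are medians and dashed lines mark a difference of 1. At FD 0 hr minus control (left) the IFT-B median of 0.62 stands to the right of every other role with at least 3 members, while at FD 24 hr minus FD 6 hr (right) no member reaches 1.

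Cytoplasmic dynein 1 members were split. DYNC1H1, the heavy chain that holds the motor, read 7.85 in control and 7.64, 7.61 and 7.73 at FD 0, 6 and 24 hr, and its brightest probe set lay 0.66 lower at FD 0 hr. DYNC1LI2, a light intermediate chain that binds cargo adaptors, read 6.31, 6.89, 6.50 and 6.55, whereas the alternative light intermediate chain DYNC1LI1 read 8.83, 8.56, 8.92 and 9.0. The DYNC1LI2 levels are midpoints of a bright probe set (0.70 above control at FD 0 hr) and a dim one (0.46). DYNC1I2, an intermediate chain that binds dynactin, read 6.91, 7.33, 7.81 and 7.49. Thus the light intermediate chains lay on opposite sides of control at FD 0 hr (0.58 and -0.27), and DYNC1I2 was highest at FD 6 hr.

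Light chains of dynein held 2 of the 5 genes higher by at least 1. DYNLT3, a chain of the Tctex family, read 7.55 in control and 8.56, 8.32 and 7.77 at FD 0, 6 and 24 hr, and both of its probe sets were higher at FD 0 hr (1.17 and 0.85). DYNLRB2, a chain of the roadblock family, was read by 1 probe set and gave 6.23, 7.48, 7.04 and 6.45. In both genes the FD 24 hr array came within 0.22 of control. Of their closest relatives, DYNLT1 read 6.47, 6.81, 6.42 and 6.41, so that it was also highest at FD 0 hr, by a smaller difference. These levels are midpoints of a bright probe set (0.38 above control at FD 0 hr) and a dim one (0.29). DYNLRB1, a dim gene, went the other way and lay 0.84 below control at FD 0 hr. DYNLL2, of the LC8 family, read 11.38, 11.32, 11.66 and 11.60.

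The kinesins of axonal transport were dim as genes with the exception of KIF21A, a motor that also restrains microtubule growth in the axon. It read 8.32 in control and 8.22, 8.63 and 8.87 at FD 0, 6 and 24 hr, which was its highest array. The other 8 genes had differences of -0.41 to 0.35 at FD 0 hr, and of the 6 probe sets of these genes above the limit 5 were lower than in control, where 52.2% of all probe sets above it were lower. KIF1B, which carries synaptic vesicle precursors and mitochondria, had a gene difference of -0.41 over 5 probe sets. Its brightest probe set, however, read 12.03 in control and 10.81, 11.75 and 11.52 at FD 0, 6 and 24 hr, and the next brightest 10.60, 9.06, 10.19 and 9.73. These lay 1.22 and 1.54 lower at FD 0 hr while the 3 dim probe sets of KIF1B differed by -0.41 to 0.27. For KIF5C, a neuronal kinesin-1, the brightest probe set differed by -0.29, and for KIF1A by -0.21. The brightest probe set of KIF5B, the kinesin-1 of most cells, was the exception with 0.31. Its dim probe sets differed by -0.37 and -0.06, and its gene difference was -0.37.

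Among the tubulins, TUBB3, TUBB2B, TUBA1A and TUBB4B lay furthest below control. TUBB3, the β-tubulin used as a marker of neurons, read 8.18 in control and 6.60, 7.04 and 7.66 at FD 0, 6 and 24 hr. Its difference of -1.58 was the largest in size of all members, it rests on 1 probe set of a kind that can match more than 1 transcript, and no FD array reached control. TUBA1A, the main α-tubulin of developing neurons, read 13.32, 12.38, 12.97 and 13.25, with both probe sets lower at FD 0 hr (-1.02 and -0.87). TUBB2B, a β-tubulin of neurons, read 11.51, 10.56, 11.08 and 11.20.

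TUBB4B, a widely expressed β-tubulin also found in cilia, read 12.70, 12.07, 12.70 and 12.76. In TUBA1A, TUBB2B and TUBB4B, as in TUBB3, the FD 0 hr array was the lowest of the 4. TUBB2A read 7.85, 7.82, 7.64 and 7.72, a difference of -0.03 at FD 0 hr, as the median of a bright and a dim probe set. The bright one read 11.57, 11.35, 11.14 and 11.43, a difference of -0.22, and the dim one differed by 0.16. On the higher side were TUBB1, the β-tubulin of platelets and thrombocytes (6.04, 6.47, 6.45 and 6.52), and the α-tubulins TUBA5 (6.89, 7.14, 6.82 and 6.84) and TUBA3E (6.55, 6.69, 6.60 and 6.30). The dim TUBA8B lay 0.46 below control and the dim TUBB6 0.43 above it. Over all 12 α- and β-tubulins, 5 were higher and 7 lower with a median of -0.05, and over the 8 above the limit the median was -0.33, beside -0.05 for all genes above the limit. Tubulin genes are very similar in sequence, and how far a probe set reads related isotypes was not tested.

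Most markers of retinal neurons and glia were, like these tubulins, lower at FD 0 hr than in control, where 49.5% of all genes were lower. Of 13 measured markers of amacrine and horizontal cells, 11 were lower at FD 0 hr than in control with a median of -0.65, led by TFAP2B (10.02, 7.62, 8.82 and 9.37), and the log2 of their summed signal was 14.26 in control and 13.28, 13.85 and 14.04 at FD 0, 6 and 24 hr. Of 10 ganglion cell markers, 7 were lower with a median of -0.24, led by NEFM (9.80, 7.98, 8.55 and 8.95), and their summed signal was 13.50, 12.94, 12.92 and 13.34. Of 8 cone markers, 6 were lower with a median of -0.48, led by OPN1LW (13.37, 11.06, 12.66 and 11.91), and their summed signal was 14.44, 13.68, 14.13 and 14.17. Bipolar cell markers were split, with 2 higher and 3 lower of 5 and a median of -0.295. Markers of glia were lower as well, all 6 of Müller glia with a median of -0.20 and all 4 of oligodendrocytes with a median of -0.56. From FD 6 hr to FD 24 hr TUBB3, TUBB2B, TUBA1A and TUBB4B were higher, where 46.6% of all genes were. So were 8 of 10 ganglion cell markers (median 0.305), 11 of 13 of amacrine and horizontal cells (0.155) and 5 of 8 of cones (0.54). Of bipolar cell markers 3 of 5 were higher (0.22), and of oligodendrocyte markers all 4 (0.145), while all 6 Müller glia markers were lower (median -0.235). The part of these cells, or of the wide β-actin gap at FD 0 hr, in the differences of the tubulins, KIF1B, KIFAP3 and BBS2 was not tested.

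Beside the higher IFT-B levels, the marker lists gave a different picture. Markers of choroidal vessels and stroma were higher in 11 of 15 with a median of 0.24, and their summed signal was 12.45 in control and 12.84, 12.55 and 12.38 at FD 0, 6 and 24 hr. Of the 7 above the limit, 3 were higher by at least 1 and 2 lower, namely COL1A1 (-1.09) and TAGLN (-1.18), against 4.57% of all genes in each direction. Markers of pigment epithelium and melanocytes were higher in 6 of 11 and lower in 4, with a median of only 0.01. Their summed signal was 13.82, 14.40, 14.30 and 14.09, and 3 of them were higher at FD 0 hr by at least 1. Markers of rods, which own a large cilium, were lower in 5 of 6 with a median of -0.12. All 10 measured markers of multiciliated cells (DNAH5, DNAI1, HYDIN and others), which carry motile cilia, were dim on these arrays and their median difference was 0.00. The part of the choroidal cells and of the β-actin gap at FD 0 hr in the IFT-B levels was not tested.

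Among the remaining members, KIF2A was furthest from control. Of 9 mitotic kinesins, 7 were dim, and the gene differences at FD 0 hr ran from -0.17 to 0.34 with a median of 0.00. KIFC1, a minus-end motor of the spindle, read 6.80, 6.92, 7.16 and 7.29, and KIF18B, a spindle motor that shortens microtubules, read 6.39, 6.33, 6.34 and 6.43. TUBG1, the γ-tubulin that nucleates microtubules, read 6.63, 6.32, 6.29 and 6.46, and TUBGCP2 and TUBGCP6 of its ring complex differed by -0.01 and 0.12. KIF2A, which takes microtubules apart in neurons and lies on chromosome Z, read 6.95, 7.71, 7.52 and 7.49, and both of its probe sets were higher at FD 0 hr (0.84 and 0.68). KIF25 read 8.06, 7.65, 7.73 and 7.29 and was lowest at FD 24 hr. Without the 4 members on chromosome Z, 4 of 35 members above the limit were higher at FD 0 hr by at least 1, and the IFT-B median was 0.50. The share of all 6101 genes above the limit, those on chromosome Z included, was 4.57%, and it was not recomputed without them.

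**Figure D3:**
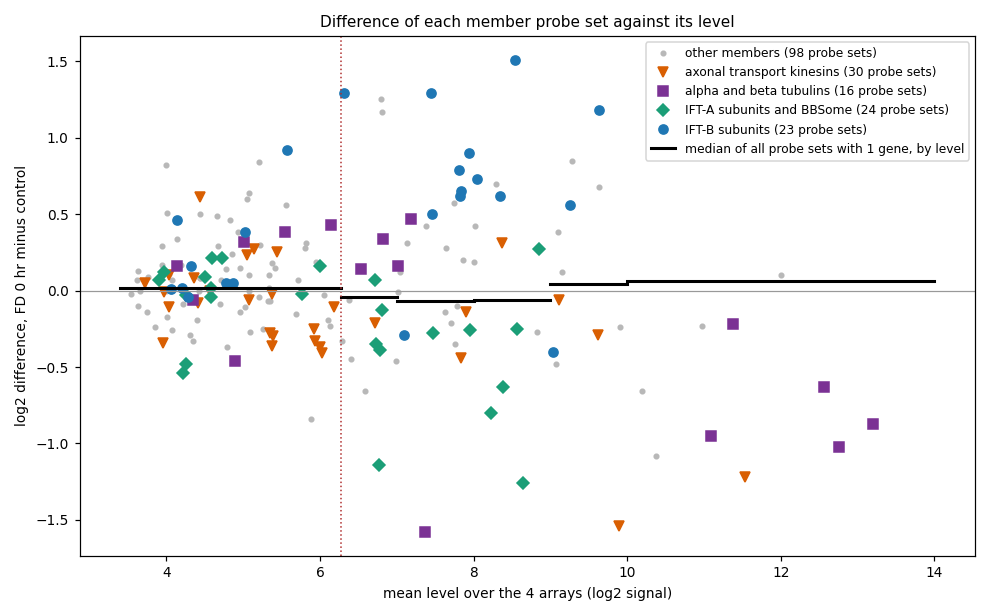
Log2 difference FD 0 hr minus control (vertical axis) of each of the 191 member probe sets against its mean level over the 4 arrays (horizontal axis, log2 signal), by group; black lines are the medians of all probe sets with 1 gene in steps of level, and the dotted line is the limit for dim genes. IFT-B probe sets above the limit lie mostly over 0 with a median of 0.69, and the α- and β-tubulin probe sets at the right end all lie under 0.

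The brightest member probe sets lay mainly on the lower side. Of the 10 with a mean over 10, 9 were lower at FD 0 hr with a median of -0.77, where 45.4% of all 1500 such probe sets were lower with a median of 0.06. They read TUBA1A, TUBB2A, TUBB2B, TUBB4B, KIF1B, KIFAP3, DYNC1H1 and DYNLL2, and the probe set that was higher (0.10) was the brighter of the DYNLL2 pair. At lower levels the direction was mixed. Member probe sets with means from 6.28 to 7 had a median of -0.13 (7 higher, 10 lower, with 53.8% of all such probe sets lower) and those from 7 to 8 a median of 0.16 (14 higher, 11 lower, 55.4%). From 8 to 9 the median was 0.27 (8 higher, 5 lower, 53.8%), and from 9 to 10 it was 0.03 (6 higher, 6 lower, 47.3%). The 114 dim member probe sets had a median of 0.05, beside 0.02 for all dim probe sets.

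Axonal transport and the cilium were then compared, with DYNLRB2 in neither list and with both lists drawn up when earlier results of these data were known. At FD 0 hr minus control the 18 axonal members had a median of -0.18 (6 higher, 12 lower) and the 31 cilium members 0.05 (17 higher, 14 lower). The difference between these medians was -0.23, and with 1 array per condition it has no error. Above the limit, the medians were 0.14 for 8 axonal members (4 higher, 4 lower) and 0.12 for 14 cilium members, so that the sign of the axonal median depended on the dim members, and it was 0.13 without probe sets that can match more than 1 transcript. The cilium list was itself divided, with IFT-B at 0.62, IFT-A and the BBSome at -0.13, and the kinesin-2 and other ciliary kinesins at -0.19.

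During recovery, the 8 members that lay at least 1 from control at the end of occlusion all came nearer to it at 6 hr. At 24 hr they were nearer as well, except that IFT57 was almost back at its FD 0 hr level (-0.03 and -0.07 on its probe sets). The 8 were picked here for their FD 0 hr values, and both steps away from that array share it with the comparison against control. Both steps, like the differences of the later arrays from control, also cross the gap in the bioB control, whose part was not tested. The values therefore stand side by side and are no separate evidence of direction. No member differed by at least 1 between FD 6 hr and FD 0 hr, where 0.836% of genes above the limit were higher and 0.459% lower. By at least 0.5, 6 members were higher (7.21% of all genes) and 2 lower (4.70%), the lower being IFT20 (-0.83) and IFT57 (-0.57). At FD 24 hr minus FD 0 hr, TUBB3 was higher by 1.06, the only member higher by at least 1 (2.63% of members, 1.75% of all genes), and IFT20 (-1.09) and DYNLRB2 (-1.03) were lower (5.26%, against 2.43%). By at least 0.5, 7 members were higher (18.4%, against 10.3%) and 5 lower (13.2%, against 11.7%). The IFT-B subunits named by the rule were lower over these 24 hr in 10 of 11 (50.6% of all genes), with a median of -0.35. The 5 IFT-B subunits with other symbols went mostly the other way (4 higher, 1 lower, median 0.14). Over all 16 IFT-B subunits 5 were higher and 11 lower, with a median of -0.18.

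**Figure D4:**
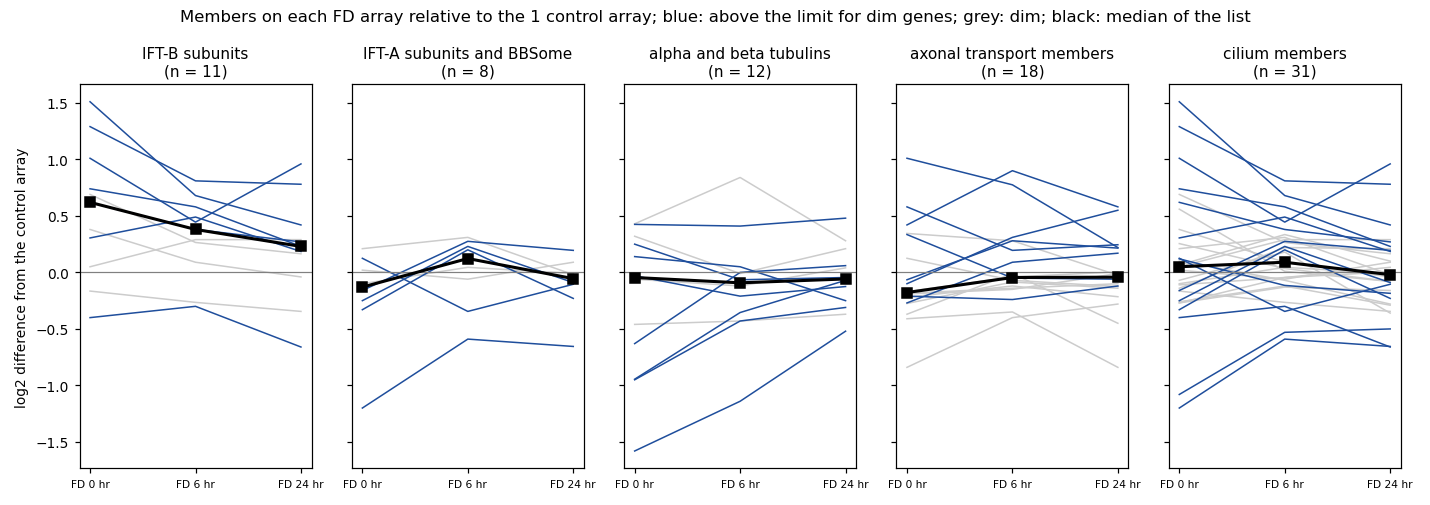
Log2 difference of each FD array from the control array (vertical axis) at 0, 6 and 24 hr after the occluder was removed (horizontal axis) for the members of 5 lists, in blue above the limit for dim genes and in grey for dim genes, with the list median in black; all points share the 1 control array. The IFT-B median was 0.62, 0.38 and 0.23, that of the α- and β-tubulins stayed between -0.09 and -0.05, and that of the axonal members was -0.18, -0.05 and -0.04.

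Against the same control array, the IFT-B subunits named by the rule stayed mostly higher. At FD 6 hr 9 of 11 IFT-B members were above control with a median of 0.38 (49.0% of all genes), and a day after removal 8 of 11 with a median of 0.23 (46.3%). TUBB3 was the only member lower than control by at least 1 at FD 6 hr (-1.14, where 1.18% of genes were lower), and none was higher (1.82%). By FD 24 hr no member differed from control by at least 1 in either direction, where 0.983% of genes were higher and 1.43% lower. IFT57 came nearest on the higher side with 0.96 and KIF25 among the members above the limit on the lower side with -0.77.

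Only the step between 6 and 24 hr of recovery uses neither the control array nor FD 0 hr. No member differed by at least 1, where 0.311% of genes above the limit were higher and 0.934% lower. By at least 0.5, TUBB3 (0.62) and IFT57 (0.52) were higher (5.26% of members, 2.85% of all genes), and DYNLRB2 (-0.59) and DYNLT3 (-0.56) were lower (5.26%, against 6.87%). The cilium list had 24 of 31 members on the lower side and 6 on the higher (median -0.09), where 51.6% of all genes were lower and 46.6% higher (median -0.01). The IFT-B subunits named by the rule were lower in 9 of 11 with a median of -0.11, and the α- and β-tubulins higher in 10 of 12 with a median of 0.08. With the brightest probe set of each gene, 8 of the 11 were lower and 8 of the 12 higher.

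Genes that work with the members were read from 6 lists. Of 25 microtubule-associated proteins, 16 were lower at FD 0 hr than in control with a median of -0.29, and 4 of the 17 above the limit were lower by at least 1 and none higher (4.57% of all genes in each direction). DPYSL2, which brings tubulin to the growing axon, read 12.67 in control and 10.68, 12.02 and 12.15 at FD 0, 6 and 24 hr, and the others were STMN3 (-1.72), MAPRE2 (-1.48) and DPYSL3 (-1.11). STMN2, a neuronal relative of STMN3, was higher by 0.64. Dynactin and the dynein adaptors were split (7 higher, 9 lower of 16, median -0.13), and only DCTN2, the dynamitin subunit, passed 1, with 7.41 in control and 6.18 to 6.25 on the FD arrays.

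Kinesin light chains and cargo adaptors were lower in 9 of 11 by small differences (median -0.21), of which the largest above the limit was -0.52 for SYBU, an adaptor for syntaxin cargo. The tubulin chaperones and modifying enzymes had a median of -0.06 over 15 genes, with -0.79 for ARL2, a GTPase of tubulin folding. A list of IFT and BBSome subunits and of proteins that act with them, with symbols outside the rule, gave 9 higher and 6 lower of 16. Its median was 0.15, and none of the 9 above the limit passed 1 (its IFT-A and IFT-B subunits are given above). MKKS (0.87), TCTEX1D2 (0.86), ARL6 (0.72), WDR60 (0.63), LZTFL1 (0.095), WDR34 (-0.34) and TULP3 (-0.53) in it are not subunits of IFT-A, IFT-B or the BBSome. MKKS, of the BBSome chaperonin, read 7.14 in control, 8.01 at FD 0 hr and FD 6 hr and 7.31 at FD 24 hr. In the list of photoreceptor cilium and ciliopathy genes 14 were higher and 13 lower, and the 2 that passed 1 were lower, namely UNC119 (11.59, 10.22, 10.96 and 10.71) and ARL3 (10.95, 9.68, 10.42 and 10.38), which together deliver lipid-anchored proteins to the outer segment.

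**Figure D5:**
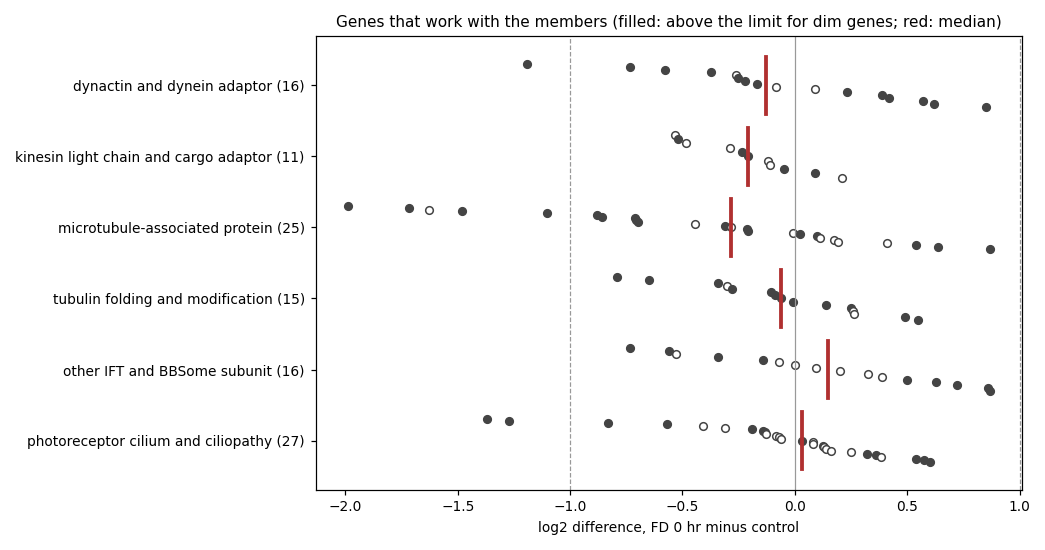
Log2 difference FD 0 hr minus control (horizontal axis) of genes that work with the members, in rows by list with the number measured in brackets; filled points lie above the limit for dim genes, open points are dim, red bars are medians and dashed lines mark a difference of 1. The microtubule-associated proteins reach furthest to the left, with DPYSL2 at -1.99. The row labelled other IFT and BBSome subunit, which also holds proteins that are not subunits, has a median of 0.15.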

How the data were processed

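Total RNA of combined retina, RPE and choroid, pooled from 5 chicks per condition, was hybridised to 4 Affymetrix chicken arrays (38535 probe sets each). The authors used RMA in Expression Console, which corrects background, quantile-normalises and summarises probes, and deposited log2 signals with 2 decimals; the submitters' processing notes also name MAS5. By the study's methods, these arrays were processed on their own and also jointly with arrays of an earlier series, and the joint values were the ones presented. The sources do not say which version the deposited values are. No further normalisation was applied, since the medians of the arrays ran from 5.73 to 5.74. The genome build behind the array was not used, and chromosomes are those of RefSeq for GRCg7b, matched by gene ID for all 83 members.

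Probe sets were named from the platform annotation: 27178 had 1 gene, 177 had several and 11180 had none, and only the former were used. Counts of genes used those above the limit, and medians used every measured member. With 1 array per condition, the precision is limited by the number of arrays and no p-value was computed. Members, lists and roles were chosen with earlier results of these data known. Members named are those past 1 in any of the 4 comparisons, and the 2 per role with the largest differences from control at FD 0 hr and over 6 to 24 hr of recovery above the limit. From some of the other lists, the 1 gene with the largest difference from control at FD 0 hr above the limit was named. That gene is not printed for rods, bipolar cells, Müller glia, oligodendrocytes, pigment epithelium, choroid and erythrocytes. Dim members, single probe sets such as those of KIF1B, and further genes were named after their values were seen. Alternatives were quantile normalisation, centring, the mean or the brightest probe set, leaving out probe sets that can match more than 1 transcript or the genes of chromosomes Z and W, and other limits for dim genes. The counts and medians were tested on simulated data. Python 3.11.15, NumPy 2.4.6, pandas 2.3.3, SciPy 1.17.1 and Matplotlib 3.10.9 were used.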

Additional observations from a re-analysis of the deposited data

How the results depend on the processing

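No paired analysis was possible because each condition had 1 array. The IFT-B median at FD 0 hr minus control ran from 0.50 (without genes of chromosomes Z and W) to 0.74 (members above the limit) under the other treatments of the same arrays. Medians near 0 changed sign: at FD 0 hr minus control the axonal median was 0.13 without probe sets that can match more than 1 transcript, the tubulin median 0.14, and the cilium median -0.03 without genes of chromosomes Z and W. With the brightest probe set, 3 members were higher than control by at least 1 at FD 0 hr, without DYNLT3 (0.85) and IFT57 (0.73). Lower by at least 1 were then TUBB3 (-1.58), BBS2 (-1.26), KIFAP3 (-1.08) and also KIF1B (-1.22), so the excess of higher over lower members was not kept. At FD 24 hr minus FD 0 hr, with that probe set, 2 were higher, 1 was lower and the axonal median was 0.20. Without the probe sets that can match more than 1 transcript, 6 members (TUBB3 and BBS2 among them) had no value, 3 were higher and 1 was lower at FD 0 hr minus control, and 0 were higher and 1 was lower at FD 24 hr minus FD 0 hr, because fewer probe sets remained. At FD 24 hr minus FD 0 hr, 1 member was lower by at least 1 with the mean of probe sets, and likewise with the limit at the 70th percentile. The share of all genes past 1 was not recomputed under these treatments, so these counts have no share beside them. The difference of IFT20 at FD 0 hr was 0.95 with the mean of its probe sets. When FD 6 hr was set against control instead, an alternative chosen after seeing the data, 0 members were higher and 1 lower by at least 1, and for FD 24 hr 0 and 0. Signal near background limits what the 45 dim members can show.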
